A study of Drosophila melanogaster with 4 samples.

Results

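The regions described here lie on chromosome 4, on the heterochromatin sequences of the assembly, on its unplaced sequence U and in the ends of the large arms that face the centromere. They were chosen by position alone, and 389 of the 5559 H3K4me2 regions of the combined list of both replicates met the rule. Chromosome 4 held 84 of them. The 6 Het sequences held 57, with 17 on 3LHet, 16 on 2RHet, 10 on 3RHet, 5 on 2LHet, 5 on XHet and 4 on YHet. The sequence U, which gathers scaffolds that were not assigned to a chromosome, held 29. The other 219 lay in 4 pericentromeric arm ends, with 88 in the end of 3R (regions ending by 1.5 Mb), 55 in the end of 2L (starting from 21 Mb), 39 in the end of 3L (starting from 22 Mb) and 37 in the end of X (ending beyond 20.5 Mb). They are set against the 3098 regions in the remainder of 2L, 3L and 3R, called the remaining arms below.

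Nuclei came from heads, sieved from whole wild-type Oregon-R Drosophila melanogaster that were labelled as mixed adults and kept in population cages on a 22-day cycle. Formaldehyde-fixed, sonicated chromatin was precipitated with an antibody to histone H3 dimethylated at lysine 4 (H3K4me2) in 2 ChIP libraries, and 2 input DNA libraries served as their controls. A head holds neurons, glia, fat body, muscle and cuticle cells, and the lists do not separate them. Nothing in the labels states that the replicates were separate fly collections, so their spread may be technical. How deeply the libraries were sequenced is unknown here.

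H3K4me2 is laid down on nucleosomes at active promoters and enhancers and is in general sparse in constitutive heterochromatin, which carries H3K9 methylation and heterochromatin protein HP1. Chromosome 4 of the fly is an exception in kind. It is bound by HP1 and by a protein specific to this chromosome over most of its length, yet its genes are expressed at levels like those of the large arms. The Het sequences, U and the arm ends hold the assembled parts of pericentric heterochromatin and its borders, where genes are few and often long and repeats are many. Reads from repeats can map to many places. No label or header used here says how such reads were handled, and their part in the values below was not tested.

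Chromosome 4 was the most densely marked of these sequences. H3K4me2 regions covered 39.7% of it in ChIP replicate 1 and 39.2% in replicate 2, against 19.4% and 19.5% of the remaining arms. The mean of 39.5% ± 0.338 on chromosome 4 was 2.03 times the 19.5% ± 0.0866 of the remaining arms (SD, n = 2 replicates each). Arm ends were covered to 12.9% ± 0.207, Het sequences to 2.33% ± 0.0458 and U to 0.524% ± 0.0443 (SD, n = 2 each). In each of these comparisons with the remaining arms the 2 replicate values of one did not overlap those of the other, and the differences were many times the SD between replicates. Both sides of each comparison come from the same 2 libraries, and the direction was the same within each. An exact two-sided permutation of 2 values against 2 gives p = 0.333 for each, which is the smallest p that this design allows, so no comparison here can pass a threshold of 0.05.

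**Figure D1:**
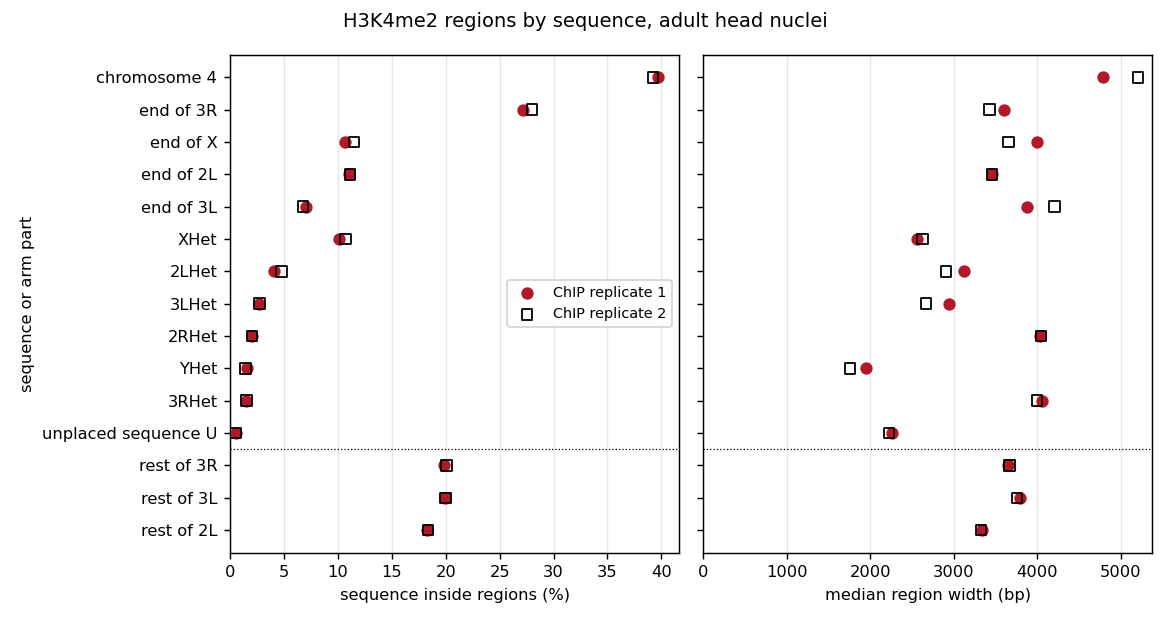
Share of sequence inside H3K4me2 regions (left, %) and median region width (right, bp) for each sequence or arm part, with filled circles for ChIP replicate 1 and open squares for replicate 2. Chromosome 4 lies near 40% and the Het sequences and U at 10.7% or below, while the remaining parts of 3R, 3L and 2L, under the dotted line, lie between 18.3% and 20.1%.

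More regions and wider regions both accompanied the coverage of chromosome 4. It had 55.1 ± 0.523 regions per Mb, against 41.5 ± 0.0306 per Mb in the remaining arms (SD, n = 2 each). Its median region was 4796 bp wide in replicate 1 and 5210 bp in replicate 2, against 3615 bp and 3598 bp in the remaining arms. In the combined list the difference was smaller, with medians of 4086 bp and 3583 bp. Regions of at least 10 kb held 46.6% and 45.0% of the covered sequence of chromosome 4 in the 2 replicates, against 21.1% and 22.1% in the remaining arms. In the combined list 16 of its 84 regions (19.0%, exact Clopper-Pearson 95% interval 11.3 to 29.1%) were at least 10 kb wide, where 10.5% of all 5559 regions were. The same share was 9.07% in the remaining arms, below the interval of chromosome 4. The intervals given for such shares hold counting error and nothing else.

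The 5 widest regions of chromosome 4 in the combined list together show how broad the mark can lie there (positions on FlyBase release 5). The region at chr4:890764-927476 was 36.7 kb wide, chr4:1135808-1166762 was 31.0 kb, chr4:101530-130282 was 28.8 kb, chr4:133598-162346 was 28.7 kb and chr4:480002-504724 was 24.7 kb. Their combined scores, which the authors gave each region and which no source used here defines, were 1.37, 1.33, 0.88, 1.28 and 1.40 in that order. None was among the 5 highest scores of the chromosome, and all 5 overlapped regions of both replicates. Only chr4:133598-162346 was a single region in each replicate. Those at 890764 and 480002 were 2 regions in both replicates, and those at 1135808 and 101530 were 2 regions in replicate 2. The widest unbroken region of chromosome 4 was 30497 bp in replicate 1 and 27915 bp in replicate 2. The regions at 101530 and 133598 lie side by side, only a few kb apart, and the 100 kb window that holds both was the most covered of the chromosome.

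Along chromosome 4 the mark was broad but not even. In consecutive windows of 100 kb from the first base, replicate 1 and replicate 2 averaged 20.8%, 60.1%, 44.4%, 43.1%, 32.4%, 42.3%, 53.5%, 13.8%, 32.3%, 48.3%, 48.7%, 40.0% and 41.5%, and the last 51.9 kb were covered to 23.8%. All but 1 of these 14 windows lay above the mean of the remaining arms. The exception, the eighth window, contains most of the longest stretch without a region, chr4:726617-802989, of 76.4 kb. The next longest stretches were chr4:391273-461207, of 69.9 kb, and chr4:531433-567779, of 36.3 kb, and no replicate region lay in any of the 3. No stretch on chromosome 4, which is 1.35 Mb long, reached 100 kb. In the 69.4 Mb of the remaining arms there were 83 such stretches, which made up 16.9% of the length. Whether their absence from so short a sequence differs from the remaining arms was not tested. The median distance between neighbouring combined regions was 3.52 kb on chromosome 4 and 6.31 kb in the remaining arms.

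**Figure D2:**
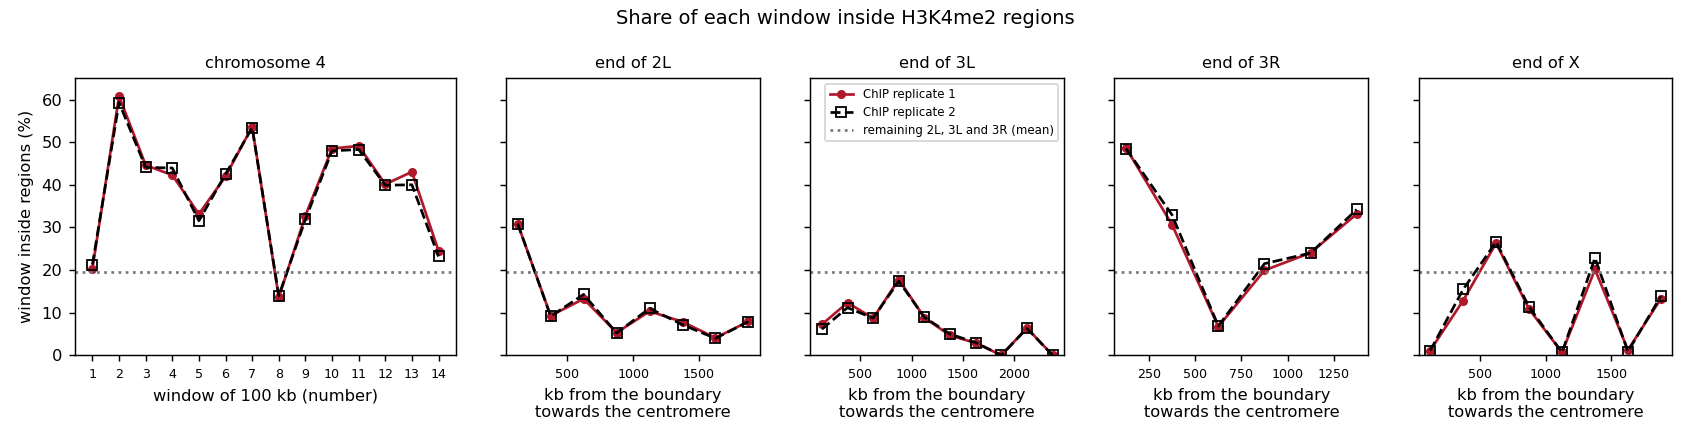
Share of each window inside H3K4me2 regions (%), in 100 kb windows numbered along chromosome 4 and in 250 kb windows ordered from the arm side towards the centromere in the 4 arm ends; circles are ChIP replicate 1, squares replicate 2, and windows under 50 kb are left out. The dotted line is the mean of the remaining 2L, 3L and 3R (19.5%); 13 of 14 windows of chromosome 4 lie above it, 5 of 6 in the end of 3R, 2 of 8 in the end of X, 1 of 8 in the end of 2L and none of 10 in the end of 3L.

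Scores on chromosome 4 were not high for such wide regions. Over all widths the median score was 1.24 and 1.20 in the 2 replicates on chromosome 4, against 1.33 and 1.27 in the remaining arms, or 1.22 ± 0.0284 against 1.30 ± 0.0489 (SD, n = 2 each). The gap was larger among wide regions. Of regions at least 4 kb wide, chromosome 4 had a median score of 1.39 in replicate 1 (41 regions) and 1.31 in replicate 2 (46 regions), against 1.69 and 1.61 in the remaining arms. Only 4 of the 41 and 5 of the 46 exceeded the median of the remaining arms. The Het sequences were also below the remaining arms at this width, with 1.52 in replicate 1 (21 regions) and 1.40 in replicate 2 (20 regions). In the combined list the medians from 4 kb up were 1.23 on the Het sequences, 1.33 on chromosome 4 and 1.54 in the remaining arms. From 4 to 8 kb the medians were 1.26 and 1.25 on chromosome 4, against 1.65 and 1.58, and from 8 kb up they were 1.43 and 1.39, against 1.76 and 1.69 in the remaining arms. In regions of 2 to 4 kb the replicate medians were 1.10 and 1.06 on chromosome 4 and 1.08 and 1.03 in the remaining arms, but in the combined list they were 0.58 and 0.87, so no direction is read from that class.

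**Figure D3:**
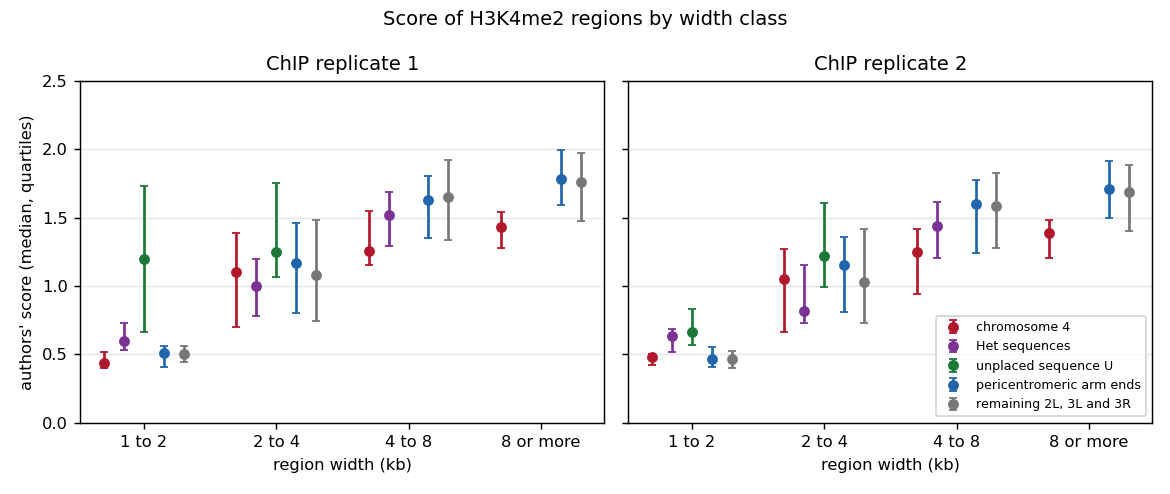
Median score of H3K4me2 regions with quartiles (bars) by region width class, for the 4 subclasses and the remaining arms in each ChIP replicate; classes with under 4 regions are left out. Above 4 kb chromosome 4 lies lower than the arm ends and the remaining arms in both replicates, as do the Het sequences from 4 to 8 kb. Between 2 and 4 kb the unplaced sequence U lies highest.

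The upper end of the score range was thinly filled on chromosome 4. The upper quartile of the remaining arms in the combined list was 1.58, which 24.9% of all 5559 regions exceeded. It was exceeded by 4 of 84 regions on chromosome 4 (4.76%, interval 1.31 to 11.7%), by 56 of 219 in the arm ends (25.6%), by 8 of 57 on the Het sequences (14.0%) and by 7 of 29 on U (24.1%). Replicate 1 had 3 of 74 chromosome 4 regions above its own such quartile, and replicate 2 had 4 of 75. On U these were 8 of 23 (34.8%) in replicate 1 and 3 of 21 (14.3%) in replicate 2, so the share there depends on the library, and on the Het sequences they were 5 of 53 (9.43%) and 5 of 56 (8.93%). As a description across regions, Spearman's rho of score with width in replicates 1 and 2 was 0.63 and 0.64 on chromosome 4, 0.70 and 0.74 in the arm ends, 0.64 and 0.71 on the Het sequences, and 0.34 and 0.60 on U, against 0.73 and 0.74 in the remaining arms. In the combined list it was 0.74 on chromosome 4 but 0.50 on the Het sequences and 0.30 on U, against 0.74 in the remaining arms.

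The highest score of chromosome 4 was 1.97, for chr4:1298208-1303028, a region of 4821 bp that scored 2.05 in replicate 1 and 1.92 in replicate 2. Next came chr4:1039502-1057446 (17.9 kb) with 1.76, chr4:802990-808792 (5803 bp) with 1.64, chr4:1311590-1314556 (2967 bp) with 1.60 and chr4:1285082-1288748 (3667 bp) with 1.58. Of these 5, 3 lie in the last 61.0 kb before the final region of the chromosome ends. That stretch, chosen after its values were seen, holds 9 regions of 2543 to 4885 bp with a median of 2635 bp, against 4419 bp over the other 75 regions of the chromosome. Its median score was 1.06, against 0.94 over the other 75. Regions near this tip were thus narrow, and all those of at least 10 kb lay elsewhere on the chromosome.

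The 4 arm ends did not behave alike. Their covered shares, given for replicate 1 and then replicate 2, were 27.2% and 28.0% in the end of 3R, 10.7% and 11.5% in the end of X, 11.0% and 11.1% in the end of 2L, and 7.01% and 6.78% in the end of 3L. Those of the remaining parts of the same autosomes were 19.9% and 20.1% for 3R, 18.3% and 18.4% for 2L, and 19.9% and 20.0% for 3L. The end of 3R was thus 1.42 times as covered as the remaining arms together, and those of 2L, X and 3L were 0.569, 0.570 and 0.354 times as covered. X and 2L ends do not differ beyond their spread, with 11.1% ± 0.565 and 11.1% ± 0.0627 (SD, n = 2 each). Without the end of 3R, an alternative added after seeing the data, the arm ends together were covered to 9.44%. Region density followed the same order at its extremes, with 54.3 per Mb in the end of 3R, 25.4 in that of 2L, 20.0 in that of X and 14.5 in that of 3L, against 41.5 in the remaining arms.

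Taken over all 4 ends, region widths and scores were near those further out. Median widths were 3687 and 3617 bp in the arm ends, against 3615 and 3598 bp in the remaining arms, and median scores were 1.35 and 1.28, against 1.33 and 1.27. Regions of at least 10 kb were 18 of 219 (8.22%) in the arm ends, against 9.07% in the remaining arms. Within each replicate the median score was slightly higher in the arm ends, although the replicate values of the 2 groups overlapped (exact two-sided permutation, which does not use the shared libraries, p = 0.667). The share of covered sequence in regions of at least 10 kb was 19.0% and 22.5% over all 4 ends, against 21.1% and 22.1% in the remaining arms (same exact test, p = 1). With 2 replicates such a p does not show that the values are alike. Single ends went opposite ways in that share, with 8.91% and 10.4% in the end of 2L and 25.5% and 37.5% in the end of X. Few regions made up these shares, 1 and 2 in the end of 2L and 3 and 4 in the end of X.

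Towards the centromere, coverage in the end of 2L was 30.9% in the first 250 kb and between 4.01% and 13.8% in the 7 windows after it. The longest stretch without a region there was chr2L:22477455-22688957, of 212 kb. Its widest regions, chr2L:21153300-21173232 (19.9 kb, score 1.96) and chr2L:21672176-21682664 (10.5 kb, score 1.28), are also the only ones of at least 10 kb in the combined list. The last region, chr2L:22967734-22969898, was 2165 bp wide with a score of 0.58 and ended 41.6 kb before the end of the sequence.

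The end of 3L had the lowest covered share of the 4. Its windows of 250 kb were covered to between 0% and 17.6%, and 2 of 10 held no region in either replicate. Stretches of at least 100 kb without a region made up 57.2% of it, the longest being chr3L:23335937-23707799, of 372 kb. Even so its last region, chr3L:24530128-24536590, lay 6.97 kb from the end of the sequence, was 6463 bp wide and scored 1.60 in replicate 1 and 1.47 in replicate 2. The widest regions were chr3L:22856130-22874282 (18.2 kb, score 1.87) and chr3L:23323408-23335936 (12.5 kb, score 1.42), and the highest score, 1.97, belonged to chr3L:22062048-22071406.

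In the end of 3R, coverage by window from the arm side to the centromere side was 48.6%, 31.7%, 6.77%, 20.7%, 24.0% and 33.7%. The lowest of these windows contains the only stretch there of at least 100 kb without a region, chr3R:778619-905279, of 127 kb. Regions continued to the first bases of the sequence, where chr3R:332-3126 (2795 bp) scored 0.87 in replicate 1 and 0.90 in replicate 2. The widest regions were chr3R:731642-748708 (17.1 kb, score 1.28) and chr3R:1286962-1302502 (15.5 kb), which also had the highest score of this end, 2.16.

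On X the end was patchy. Its windows ranged from 0.640% to 26.5%, and one of 21.5% lay between windows of 0.640% and 1.03%. Stretches of at least 100 kb without a region made up 68.7% of its length. Yet the median distance between neighbouring regions was 2.88 kb, shorter than the 6.31 kb of the remaining arms, so the regions of this end lay in tight groups. A pair of neighbours, chrX:21201890-21232358 (30.5 kb, score 1.99) and chrX:21233336-21261664 (28.3 kb, score 1.58), were the widest of all arm-end regions. The highest score, 2.08, belonged to chrX:21186472-21191200, just before them. The region nearest to the centromere side, chrX:22413254-22417460, scored 1.71 and 1.75 in the 2 replicates and ended 5.37 kb from the end of the sequence.

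The limits of the arm ends are round positions, and the regions beside them were mostly narrow and low. The outermost 2L region inside the limit was 1089 bp wide with a score of 0.40, and the nearest one outside was 2409 bp with 0.50. On 3L these were 1977 bp with 0.38 inside and 2201 bp with 0.50 outside, and on X 2813 bp with 0.83 inside and 1929 bp with 0.47 outside. The 3R limit falls in marked sequence, and the nearest region wholly inside was 10.7 kb wide with a score of 1.75. The next, chr3R:1492550-1500346 (7797 bp, score 1.72), crosses the limit and counts as outside in the combined list. Its partner in replicate 1 ends at 1499923 and counts as inside. With all limits moved by 500 kb towards the arm, coverage of the 4 ends together was 14.4%, and with limits moved towards the centromere it was 10.7%.

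On the Het sequences regions were few. On XHet and YHet they lay in a single group, while on 2RHet they were spread over 95.1% of the sequence with a median distance of 119 kb. Covered shares in replicates 1 and 2 were 10.1% and 10.7% on XHet, 4.07% and 4.79% on 2LHet, 2.64% and 2.73% on 3LHet, 2.06% and 2.05% on 2RHet, 1.61% and 1.44% on YHet, and 1.45% and 1.50% on 3RHet. All lay below the 18.3% of the least covered remaining arm. YHet and 3RHet overlapped each other, and the other neighbours in this order did not overlap. Together they had 5.87 ± 0.229 regions per Mb, against 41.5 ± 0.0306 per Mb in the remaining arms (SD, n = 2 each). Median widths were 3132 and 2929 bp, against 3615 and 3598 bp, and median scores 1.11 and 0.98, against 1.33 and 1.27 in the remaining arms. The sequences differed in width. Medians on 2RHet (4040 and 4046 bp) and 3RHet (4063 and 4001 bp) were above those of the remaining arms in both replicates. Those on 2LHet, 3LHet and YHet were below. On XHet they were below in the replicates (2560 and 2625 bp, 6 regions each). In the combined list its median over 5 regions was 4807 bp, against 3583 bp in the remaining arms, so no direction is read for XHet. Stretches of at least 100 kb without a region made up 87.4% of the 9.28 Mb of the Het sequences, with 24 such stretches.

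XHet had the shortest sequence (204 kb) and the highest coverage of the 6. Its 5 regions all lay within 30.4 kb. The widest, at XHet:73204-80746 (7543 bp), was also the highest, with scores of 1.93 in replicate 1 and 2.00 in replicate 2. XHet:59302-64108 scored 1.88 and 1.86, and XHet:83984-86828 scored 1.66 and 1.63. The other regions, XHet:56472-59116 and XHet:67234-72556, scored 0.86 and 0.60 in the combined list. All 5 were found in both replicates.

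YHet, from the Y chromosome, held 4 weak and narrow regions within 24.4 kb, after 305 kb without any. YHet:304716-306856 scored 1.15 in replicate 1 and 0.60 in replicate 2, YHet:312694-314524 scored 0.86 and 0.63, and YHet:327120-329138 scored 0.96 and 0.70. The region at YHet:320078-321722 had a combined score of 0.40 and was in neither replicate. Each of the 3 shared regions scored lower in replicate 2, by 0.22 to 0.55. No label used here gives the proportion of male and female flies in each replicate.

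Of the 5 regions of 2LHet, 2LHet:165932-169608 scored highest (1.44), and 2LHet:23650-33442 was widest (9793 bp, score 1.03). Those at 2LHet:34256-37240, 2LHet:252952-255210 and 2LHet:20300-22390 scored 1.14, 0.72 and 0.40, and the last 2 were found in replicate 2 alone. On 2RHet the widest was 2RHet:197400-207422 (10.0 kb, score 1.40), the only one there of at least 10 kb in the combined list. Each replicate held it as 2 regions, and no 2RHet region of either replicate reached 10 kb. The highest score, 1.69, belonged to 2RHet:2901346-2906800. No region lay in the 923 kb of 2RHet:1852453-2775597. On 3LHet the widest was 3LHet:205042-220716, 15.7 kb wide but with scores of only 0.82 and 0.65 in the replicates. It opens a group of 4 low regions that ends at 238632, whose combined scores were 0.73, 0.55, 0.42 and 0.39. The highest there was 3LHet:700514-703568, a region of 3055 bp that scored 1.77 in replicate 1 and 1.62 in replicate 2.

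3RHet was empty over its first 1701 kb, and its 10 regions followed between 1701072 and 2382768. The widest was 3RHet:1810952-1817536 (6585 bp), which scored 0.76 in replicate 1 and 0.92 in replicate 2. The region with the highest combined score of 3RHet, 2.87 at 3RHet:1720260-1721260, was only 1001 bp wide and appeared in neither replicate. The other 9 were present in both replicates and scored between 0.42 and 1.51.

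On the unplaced sequence U, 29 regions covered under 1% of 10.0 Mb. Replicate 1 had 23 regions and replicate 2 had 21, or 2.19 ± 0.141 per Mb (SD, n = 2), against 41.5 ± 0.0306 in the remaining arms. They were narrow, with median widths of 2257 and 2224 bp, against 3615 and 3598 bp in the remaining arms, and none of 29 reached 10 kb (upper limit of the exact interval 11.9%). The widest, U:1100858-1105300 (4443 bp), U:3441462-3445846 (4385 bp) and U:6383968-6387842 (3875 bp), had scores of 1.06, 0.98 and 1.65. A split at 5.5 Mb, chosen after the positions were seen, put 23 of the 29 regions beyond it and 6 before. Neighbours on U need not be neighbours in the genome, because the scaffolds are joined in no known order.

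Narrow regions on U scored above those of like width in the remaining arms. From 1 to 2 kb the median score on U was 1.20 in replicate 1 (4 regions) and 0.67 in replicate 2 (6 regions), against 0.50 and 0.47. This was not particular to U. The Het sequences (0.60 and 0.63, 7 and 9 regions) and the end of X (0.64 and 0.60, 4 regions each) were also above the remaining arms. All arm ends together were at 0.51 and 0.46. Between 2 and 4 kb it was 1.25 in replicate 1 (17 regions) and 1.22 in replicate 2 (14 regions), against 1.08 and 1.03 in the remaining arms. In that class the ends of X (1.26 and 1.18) and 3R (1.20 and 1.20) lay near U. Those of 2L (1.15 and 1.04) and 3L (0.93 and 1.12) lay lower, and the Het sequences (1.00 and 0.82) lay below the remaining arms. From 4 kb up U lay below the remaining arms, at 1.14 in replicate 1 (2 regions) and 1.00 in replicate 2 (1 region), against 1.69 and 1.61. The highest-scoring region of U was U:7586352-7587374, of 1023 bp, with 3.16. It was in neither replicate. U:7541898-7544588 scored 2.59 in replicate 1 and 2.18 in replicate 2, U:8907416-8909768 scored 1.87 and 2.30, and U:7221190-7223852 scored 1.75 and 2.10. The fifth, U:7869386-7871386, was in replicate 1 alone, with 1.78. So the order of the highest regions on U differed between the replicates, with the first of these 3 higher in replicate 1 and the other two higher in replicate 2.

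Most of the 389 regions were found in both replicates, at 324 (83.3%), against 83.4% of the remaining arms and 81.7% of all 5559. Both replicates held 193 of 219 in the arm ends (88.1%, interval 83.1 to 92.1%), 48 of 57 on the Het sequences (84.2%, interval 72.1 to 92.5%), 63 of 84 on chromosome 4 (75.0%, interval 64.4 to 83.8%) and 20 of 29 on U (69.0%, interval 49.2 to 84.7%). All 4 intervals overlap one another and that of the remaining arms (82.1 to 84.7%), those of chromosome 4 and the arm ends only narrowly. Such overlap does not show that the shares are alike, and their differences were not tested. Replicate 1 alone held 15 of the 389 and replicate 2 alone held 13.

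**Figure D4:**
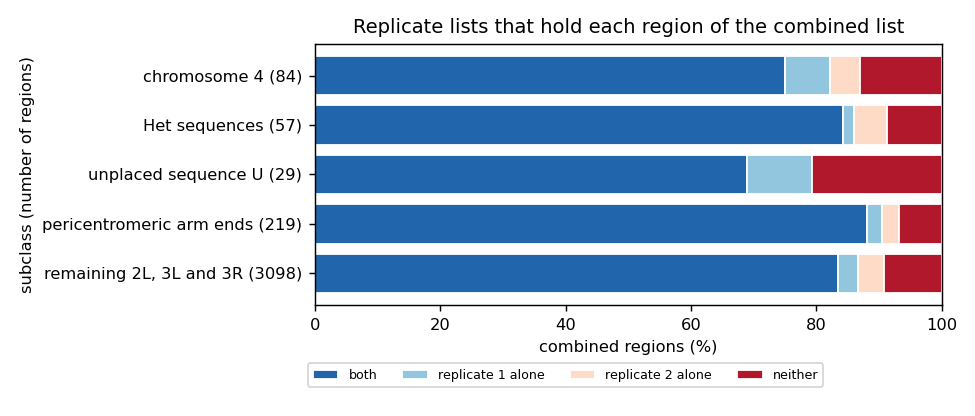
Share of combined regions (%) found in both replicate lists, in one alone or in neither, for the 4 subclasses and the remaining arms; the number of regions stands beside each name. Both replicates held 75.0% on chromosome 4, 84.2% on the Het sequences, 69.0% on U, 88.1% in the arm ends and 83.4% in the remaining arms.

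The combined list also held regions that overlap no region of either replicate. There were 37 among the 389 (9.51%), close to the 10.2% of all 5559, and they were 11 on chromosome 4, 5 on the Het sequences, 6 on U and 15 in the arm ends. Most were short and weak. Their median width and score were 1289 bp and 0.31 on chromosome 4, against 1312 bp and 0.36 in the remaining arms. On U they were as short (1244 bp) but had a median score of 0.92. A score above the median of the combined list (1.11) without a region in either replicate was rare, at 0.162% of all regions, or 9 in number. Of these, 4 were among the 389 (1.03%, interval 0.281 to 2.61%), namely the regions of 3.16 on U and 2.87 on 3RHet described above, chr2L:21520896-21521900 (1005 bp, score 2.40), which is the highest score in the end of 2L, and U:8092488-8094476 (1989 bp, score 1.29). Another 4 lay in the remaining arms (0.129%, interval 0.0352 to 0.330%) and the ninth elsewhere on X. These intervals overlap only from 0.281 to 0.330%, and whether the shares differ was not tested. So the highest combined scores of U, of 3RHet and of the end of 2L each belong to a region of about 1 kb that neither replicate held.

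Some combined regions spanned breaks in the replicates. On chromosome 4, 9 of 84 (10.7%) covered at least 2 regions of a replicate, as did 15 of 219 in the arm ends (6.85%), 5 of 57 on the Het sequences (8.77%) and 1 of 29 on U (3.45%), against 8.17% in the remaining arms and 8.96% of all regions. The 28.3 kb region on X described above was whole in replicate 2 and 3 regions in replicate 1.

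Where a region had 1 partner in the other replicate, scores were close. The median difference, replicate 2 minus replicate 1, was −0.06 on chromosome 4 (58 pairs), −0.05 on the Het sequences (49 pairs), −0.03 in the arm ends (186 pairs) and −0.06 in the remaining arms (2496 pairs). U stood lower, at −0.23 over 19 pairs, of which 4 were higher in replicate 2. Pearson's r across these pairs, as a description of regions that share their 2 libraries, was 0.97 on chromosome 4, 0.95 on the Het sequences, 0.97 in the arm ends and 0.98 in the remaining arms, but 0.81 on U. On 2RHet 14 of 15 pairs were lower in replicate 2, with a median of −0.11. The end of X went the other way, with a median of 0.05 and a higher replicate 2 score in 21 of its 32 pairs, where 713 of the 2496 pairs of the remaining arms were higher. It was not alone in this, as XHet had a median of 0.06 (4 of 6 pairs higher) and 2LHet had 0.08 (2 of 2).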

How the data were processed

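H3K4me2 ChIP-seq and input libraries of adult head nuclei, 2 of each, were grouped by their titles. The authors deposited 3 lists of enriched regions, for ChIP replicate 1, for replicate 2 and for both combined, with positions on FlyBase release 5, per the file headers. The deposited score of each region is the authors' own. What it measures, which caller and threshold made the regions and how the replicates were combined are points that no label or header used here gives. The submitters' processing notes name Bowtie 0.12.7. Scores were used to describe, rank and filter regions within a list, and to set matching regions of the 2 replicate lists side by side. Whether the score has the same scale in both lists is not stated. The input libraries enter only through the authors' lists.

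The headers also gave the length of each sequence. Covered share, regions per Mb, median width and median score were computed for each replicate list and each subclass with Python 3.11.15 (pandas 2.3.3, scipy 1.17.1 and numpy 2.4.6), and the overlap code was tested on simulated data. A combined region counted as found in a replicate where at least 1 bp overlapped. Replicate values are given as mean ± SD and compared by an exact two-sided permutation, and shares of regions are given with 95% intervals by the exact Clopper-Pearson method. Where a combined region covers several regions of a replicate, the highest of their scores is given. Regions named are, on chromosome 4, the 5 widest, the 5 highest-scoring and the 3 longest stretches without a region. On each Het sequence they are the widest and the highest, or every region where there are 5 or fewer. On U they are the 5 highest and the 3 widest, and in each arm end the 2 widest, the highest and the one nearest to the centromere side. Others named were chosen after their values were seen, as were the width classes, the upper quartile and the windows. The members and rules were chosen with earlier results of these data known. Alternatives were the combined list, the higher-scoring 50% of each list, joining regions under 1000 bp apart, a reciprocal overlap of 50%, arm-end limits moved by 500 kb, and each replicate alone. The gene table at hand belongs to release 6, so regions carry no gene names.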

Additional observations from a re-analysis of the deposited data

How the results depend on the processing

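The order of covered share, chromosome 4 above the remaining arms, then arm ends, Het sequences and U, held for the main values and under the 5 alternatives that apply to all of them. The ratio of chromosome 4 to the remaining arms ranged from 1.77 to 2.05. In the combined list, covered shares were 44.3% on chromosome 4, 2.72% on the Het sequences, 0.683% on U and 14.0% in the arm ends, against 21.8% in the remaining arms. With the higher-scoring 50% of each list they were 22.9%, 1.00%, 0.205% and 8.80%, against 12.9%. Joining regions under 1000 bp apart gave 39.9% on chromosome 4, against 19.7% in the remaining arms. Arm ends were covered to 14.4% with limits moved towards the arm, 10.7% with limits moved towards the centromere and 9.44% without the end of 3R, an alternative chosen after seeing the data. Among the higher-scoring 50% of combined regions, both replicates held 100% on chromosome 4, 95.7% on the Het sequences and 99.2% in the arm ends, but 75% on U, against 99.7% in the remaining arms, whose share at a reciprocal overlap of 50% was 80.5%. For median width and score, the combined list and joined regions moved 9 of 12 values by more than 1 SD between replicates; values with 1 of 2 replicates left out cannot exceed that limit and are not counted. No paired analysis was possible because the shared numbers join ChIP and input libraries, and the lists hold no separate values for input DNA. Subclasses and remaining arms share the same 2 ChIP libraries, so their values are given by replicate. Read depth is unknown, so no limit from depth can be given for sequences with few regions, and the share of each sequence to which reads could be mapped was not tested.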
